A study of Mus musculus with 2 samples.

Results

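The genes described here are 10 members of the vascular growth factor system, 5 ligands (Vegfa, Vegfc, Pgf, Angpt1 and Angpt2) and 5 receptors (Flt1, Kdr, Flt4, Tek and Tie1). They were taken by symbol, and all 10 were among the 19070 genes measured in both libraries. Their counts were summed over each library and over classes of cells, and ligands were set against receptors.

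RNA was measured cell by cell in mouse endometrium, the inner lining of the uterus, on day 3 of pregnancy at 9 AM. There was 1 library from Erbb3 f/f females, the controls, and 1 from Erbb3 d/d females, stated by the submitters to lack Erbb3 in the stroma. Erbb3 encodes a receptor of the ErbB family. The driver of the deletion, the strain, the age and the number of females behind each library are not given in the sources used here. With 1 library per genotype no test was possible, the spread between animals is unknown, and genotype and preparation cannot be told apart. Every interval below is a 95% interval that covers counting error only.

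Vegfa is the main growth signal for blood vessel endothelium, and Kdr (VEGFR2) is the receptor through which it acts on endothelial cells. Flt1 (VEGFR1) binds Vegfa and Pgf and also exists as a soluble form that holds the ligand back. Vegfc acts on Flt4 (VEGFR3), which in the adult is best known from lymphatic endothelium. Angpt1 activates the receptor Tek (Tie2), Angpt2 modulates the same receptor, and Tie1 is the orphan partner of Tek. In the uterus of early pregnancy these signals are studied because the vessels of the stroma grow and become permeable around implantation.

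The stretches of DNA before the start of the most widely measured ligand and of 3 receptors concentrated in endothelial cells are shown here, since the results turn on this contrast. They come from RefSeq (GRCm38.p6), read 5′ to 3′ on the strand of the gene, and capitals mark GGAA on either strand, the core of the sites bound by ETS factors, a family known for its role in endothelial genes. Of the 10 members, 8 had an entry in the promoter table and Angpt1 and Angpt2 had none.
Vegfa (chr17:46032378-46032627, minus strand): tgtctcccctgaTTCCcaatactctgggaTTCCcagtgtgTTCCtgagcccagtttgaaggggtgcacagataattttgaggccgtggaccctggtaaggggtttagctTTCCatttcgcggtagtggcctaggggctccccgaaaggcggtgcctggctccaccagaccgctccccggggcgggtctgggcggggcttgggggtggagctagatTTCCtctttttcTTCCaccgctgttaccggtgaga
Flt1 (chr5:147726012-147726261, minus strand): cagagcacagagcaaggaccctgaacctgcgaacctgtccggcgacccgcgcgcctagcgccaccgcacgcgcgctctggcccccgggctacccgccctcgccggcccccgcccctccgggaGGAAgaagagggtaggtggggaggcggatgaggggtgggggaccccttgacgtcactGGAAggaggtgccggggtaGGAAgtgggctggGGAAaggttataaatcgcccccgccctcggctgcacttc
Kdr (chr5:75978459-75978705, minus strand): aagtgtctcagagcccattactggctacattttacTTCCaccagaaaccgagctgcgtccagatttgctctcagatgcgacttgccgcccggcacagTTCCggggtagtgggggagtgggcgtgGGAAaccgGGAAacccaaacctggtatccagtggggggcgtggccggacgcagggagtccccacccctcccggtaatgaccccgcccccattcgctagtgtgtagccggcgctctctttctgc
Tek (chr4:94739039-94739288, plus strand): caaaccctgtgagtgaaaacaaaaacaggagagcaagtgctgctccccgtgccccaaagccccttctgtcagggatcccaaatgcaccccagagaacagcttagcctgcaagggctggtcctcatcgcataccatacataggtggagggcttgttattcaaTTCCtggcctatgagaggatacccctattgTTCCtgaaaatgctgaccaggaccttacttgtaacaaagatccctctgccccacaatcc
The windows cover 250 bases before the RefSeq start. That of Kdr is shown without the 3 bases that lie inside its gene model, so 247 are printed. GGAA was found 6 times before Vegfa, 4 times before Flt1, 4 times before Kdr and 2 times before Tek. The windows not shown held 7 matches for Tie1, 2 for Flt4, 1 for Vegfc and 0 for Pgf, and of their 250 bases 212 (Tie1), 250 (Flt4), 0 (Vegfc) and 250 (Pgf) lie inside the gene model. It is a common word, present in 93.4% of the windows of 27025 genes with a median of 3 matches, and 33.4% of windows held 4 or more. GGGCGG, the GC box, was found 2 times before Vegfa, 3 times before Flt1 and 2 times before Kdr, and not in the windows of Tek and Tie1. Vegfc, Pgf and Flt4 had 2, 2 and 3 matches, and 33.0% of all windows held the word. ACGTG, the core of the hypoxia response element, was in none of the 8 windows and in 16.5% of all windows. Both strands were searched for each word, no match of one word overlapped a GGAA in these windows, and a match is only a run of letters.

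After filtering, 5503 f/f cells with 5517795 unique molecular identifiers (UMIs, each counting 1 captured molecule) and 1830 d/d cells with 1712695 UMIs were used, with medians of 809 and 764.5 UMIs per cell. No full cell barcode was shared between the libraries. Barcodes with over 10% mitochondrial UMIs were left out, and these held 19.1% of the UMIs of the f/f library and 40.3% of those of the d/d library. A cell was placed in a class when at least 2 markers of that class were detected, which gave 1897 epithelial, 1549 stromal, 277 endothelial, 281 mesothelial, 145 macrophage and myeloid, 117 smooth muscle and pericyte and 10 lymphatic endothelial cells in the f/f library. The d/d library gave 741, 396, 85, 94, 64, 35 and 3 cells in the same order, and 1211 f/f and 404 d/d cells stayed ungated. None of the members was a marker. The endothelial class led with Egfl7, Shank3 and Adgrl4, and its 13 measured markers came to 4508 and 4834 CPM (a count scaled to a common class total, the unit of all levels below). Of the endothelial cells, 107 (f/f) and 35 (d/d) stood at the minimum of 2 markers, and 160 and 54 also reached the minimum of another class. Stromal cells held 35 f/f and 6 d/d UMIs of Erbb3 itself, 24.6 against 17.8 CPM (a log2 ratio of -0.46, here and below taken as d/d against f/f, interval -2.00 to 0.80). Epithelial cells held 165 and 29 UMIs, 79.2 against 39.9 CPM (log2 ratio -0.99, interval -1.61 to -0.41). Where its probes lie relative to the deleted part is not given in the sources used here.

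Vegfa gave most of the ligand UMIs counted, was measured in every larger cell class and stood higher in the d/d library in each of them. Over all cells it had 4318 f/f and 1732 d/d UMIs, 783 against 1011 CPM, a log2 ratio of 0.37 (interval 0.29 to 0.45). Epithelial and stromal cells held 67.0% (f/f) and 66.3% (d/d) of its UMIs. The difference was small beside those of many genes. Of the 9740 genes that reached 100 UMIs in the sum of the libraries, 6.09% differed by 2-fold or more, Vegfa did not, and 16.9% had a log2 ratio at least as high as its own. The median over these genes was -0.04.

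**Figure D1:**
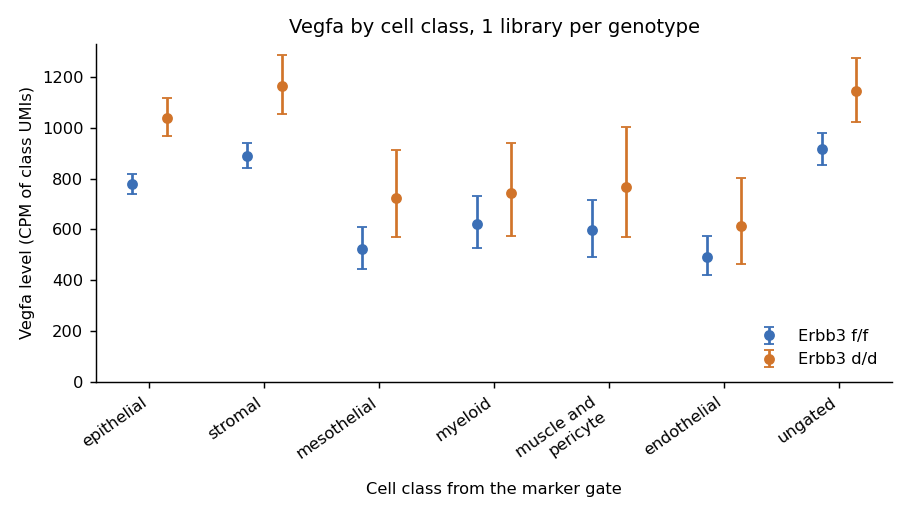
Vegfa level in CPM of the class total (vertical axis) in 7 groups of cells from the marker gate (horizontal axis), in the f/f library (blue) and the d/d library (orange). Points are the level in 1 library and bars are 95% Poisson intervals for counting error. The d/d point lies above the f/f point in 7 of 7 groups, and the intervals stand apart in epithelial, stromal and ungated cells.

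In stromal cells, the class in which the deletion is stated, Vegfa was at 891 CPM in f/f (1269 UMIs) and 1166 CPM in d/d (393 UMIs), with a log2 ratio of 0.39 (interval 0.22 to 0.55). In epithelial cells it was at 779 CPM (1622 UMIs) and 1040 CPM (756 UMIs), with a log2 ratio of 0.42 (interval 0.29 to 0.54). The difference was thus of like size in the class named for the deletion and in the epithelium. Erbb3 itself was lower in d/d in epithelial cells (-0.99, interval -1.61 to -0.41), and its stromal interval included 0 (-0.46, -2.00 to 0.80). The 2 classes therefore do not set cells with Erbb3 loss against cells without it. Mesothelial cells, which line the outer surface of the uterus and were found although the tissue is labelled endometrial, had 522 and 726 CPM (log2 ratio 0.48, interval 0.06 to 0.88). Of these cells, 234 of 281 (f/f) and 77 of 94 (d/d) also reached the minimum of another class, and the interval included 0 with 1 more marker needed (0.36, -0.27 to 0.95), with a gate on the share of markers (0.58, -0.01 to 1.15) and with all deposited barcodes (0.32, -0.02 to 0.67). Lower levels were measured in endothelial cells, 493 and 615 CPM (log2 ratio 0.32, interval -0.15 to 0.77). That endothelial ratio was above 0 under 5 of 7 alternatives. It was 0.54 (interval 0.03 to 1.03) with 1 more marker needed and 0.63 (interval 0.32 to 0.94) with all deposited barcodes. It was -0.97 (interval -2.24 to 0.11) with a gate on the share of markers. With cells of more than 1 class left out it was -1.34 (interval -3.69 to 0.34). Smooth muscle and pericyte cells had 597 and 766 CPM (log2 ratio 0.36), macrophage and myeloid cells had 623 and 742 CPM (log2 ratio 0.25), and the intervals of both ratios included 0. Ungated cells had 916 and 1145 CPM (log2 ratio 0.32, interval 0.13 to 0.51). Thus 7 of 7 groups with at least 20 cells in each library had a ratio above 0, from 0.25 to 0.48, and the interval lay above 0 in 4 of them. Vegfa passed 2-fold in none of them, against 9.2% of genes counted in epithelial, 4.55% in stromal, 5.5% in endothelial, 2.79% in mesothelial, 5.61% in myeloid and 6.9% in ungated cells. A log2 ratio as high as that of Vegfa was seen for 19.5% of genes in epithelial and 13.8% in stromal cells, and for 255 of 4715 genes (5.41%) in both classes at once.

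The order of the f/f levels ran from stromal to epithelial, with a log2 difference of 0.19 (interval 0.09 to 0.30), and then, with the T and NK (9 cells) and B and plasma (7 cells) classes in between, through myeloid, smooth muscle, mesothelial and endothelial cells, where no neighbours differed beyond counting error. In d/d the first step, 0.17, did not exceed counting error (interval -0.01 to 0.34), and the step from epithelial to smooth muscle cells was 0.44 (interval 0.04 to 0.88). Of epithelial cells, 49.6% (f/f) and 53.7% (d/d) had at least 1 Vegfa UMI, the median cell holding 944 and 872 UMIs. After thinning each cell to 500 UMIs these shares were 30.2% and 35.5%, and for stromal cells 33.7% and 39.4%. Endothelial cells had thinned shares of 15.2% and 22.4%. No class that should lack Vegfa was available, so what free RNA adds to its level was not tested.

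In unsupervised clusters Vegfa was again mostly higher in d/d. Both libraries were divided into 12 clusters, with the members left out of the genes that drove the clustering, and Vegfa was higher in d/d in 11 of them, with the interval above 0 in 6. The exception was the smooth muscle-like cluster, with 4 Vegfa UMIs in d/d. The f/f levels ranged from 338 to 1103 CPM. The highest was in cluster 9, an epithelial-like cluster led by Slc2a3, Syn2 and Gulo where 5 gland markers had their highest level of all clusters (Foxa2 and Cxcl15 with 38 and 115 UMIs in f/f). There Vegfa was at 1103 CPM in f/f (755 cells) and 1670 CPM in d/d (58 cells), a log2 ratio of 0.60 (interval 0.23 to 0.95). Cluster 1, led by the mitotic genes Ankle1, Troap and Spag5, had 811 and 1053 CPM (log2 ratio 0.38, interval 0.21 to 0.54). The stroma-like cluster 4 had 959 and 1506 CPM (log2 ratio 0.65, interval 0.44 to 0.86). The make-up of the epithelium differed between the libraries: cluster 6, led by Arvcf, Slc5a11 and Rims3, had 952 cells from f/f but 10 from d/d, and cluster 1 had 499 and 652. In cluster 6 Vegfa was at 740 and 1188 CPM, with 10 UMIs in d/d.

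**Figure D2:**
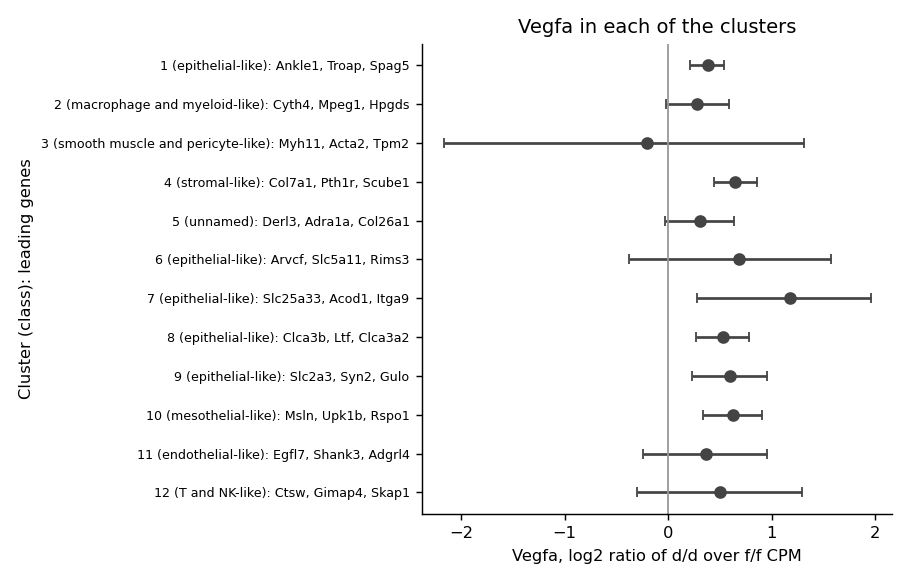
Log2 ratio of the Vegfa level in d/d to that in f/f (horizontal axis), in each of 12 clusters (vertical axis, with the class read from markers and the 3 leading genes). Points are the ratio of 2 libraries, bars are 95% intervals for counting error, and the line marks 0. Points lie right of 0 in 11 clusters, and the interval is clear of 0 in 6.

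The other 4 ligands had few UMIs and as a sum over all cells did not share the direction of Vegfa. Together they had 234 f/f and 52 d/d UMIs, 42.4 against 30.4 CPM, a log2 ratio of -0.48 (interval -0.94 to -0.04). By class, the interval of this sum lay below 0 only in ungated cells (29 and 2 UMIs, -2.21, interval -5.32 to -0.23). It included 0 in every gated class, with ratios of -0.27 in epithelial, -0.50 in stromal and 0.16 in mesothelial cells. Vegfc, the lymphangiogenic ligand, had 112 and 28 UMIs, 20.3 and 16.3 CPM over all cells (log2 ratio -0.31, interval -0.96 to 0.30). Its highest level among classes of at least 20 cells was in mesothelial cells, 72.2 CPM in f/f (22 UMIs) and 99.4 CPM in d/d (10 UMIs). Stromal cells held more of its UMIs, 49 and 10, at 34.4 and 29.7 CPM. Epithelial cells had 3.84 and 5.50 CPM. In d/d the mesothelial level stood above the stromal one by 1.74 on the log2 scale (interval 0.32 to 3.17). Between the libraries, the mesothelial ratio was 0.46 (interval -0.78 to 1.60) and lay between -0.78 and -0.03 under the 6 other ways of filtering or classing cells, so its direction is not settled.

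Pgf, the Flt1 ligand named for the placenta, had 78 f/f and 16 d/d UMIs, 14.1 and 9.34 CPM (log2 ratio -0.60, interval -1.47 to 0.19). Among classes of at least 20 cells, mesothelial cells had its highest level, 39.4 CPM (12 UMIs) and 29.8 CPM (3 UMIs). In f/f this was above the epithelial level of 11.5 CPM by 1.77 on the log2 scale (interval 0.64 to 2.83). Within the epithelium, cluster 9 held 21 Pgf f/f and 0 d/d UMIs, and the interval reached up to a log2 ratio of 1.47. Over all epithelial-like clusters together the Pgf ratio was -1.78 (interval -3.72 to -0.32). Clusters 6, 7 and 9 held 9, 9 and 21 of the f/f UMIs. They had 952, 227 and 755 f/f cells but 10, 7 and 58 d/d cells. In clusters 1 and 8, with 652 and 282 d/d cells, Pgf had 3 and 1 UMIs in f/f and 1 and 2 in d/d. The part of this cluster make-up in the ratio was not tested. In gated epithelial cells the Pgf ratio was -0.48 (interval -2.06 to 0.85), and 0.36 with 1 more marker needed (interval -1.05 to 1.63), so it depended on how epithelial cells were classed.

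Angpt1 had 15 f/f and 3 d/d UMIs, and 11 of the f/f UMIs were in stromal cells, at 7.72 CPM. No Angpt1 UMI was found in endothelial cells, where 3 counts would be 8.85 CPM in f/f and 33.6 CPM in d/d. In f/f its stromal level stood above the epithelial one by 4.01 on the log2 scale (interval 1.22 to 9.44), with 1 epithelial UMI. Angpt2 had 29 and 5 UMIs, 14 and 2 of them in stromal cells at 9.83 and 5.93 CPM. Endothelial cells, from which Angpt2 is known to be released, held 3 and 1 UMIs. Differences between the libraries were not detectable for either angiopoietin at this depth, with ratios of -0.63 (interval -3.06 to 1.19) for Angpt1 and -0.85 (interval -2.57 to 0.54) for Angpt2.

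**Figure D3:**
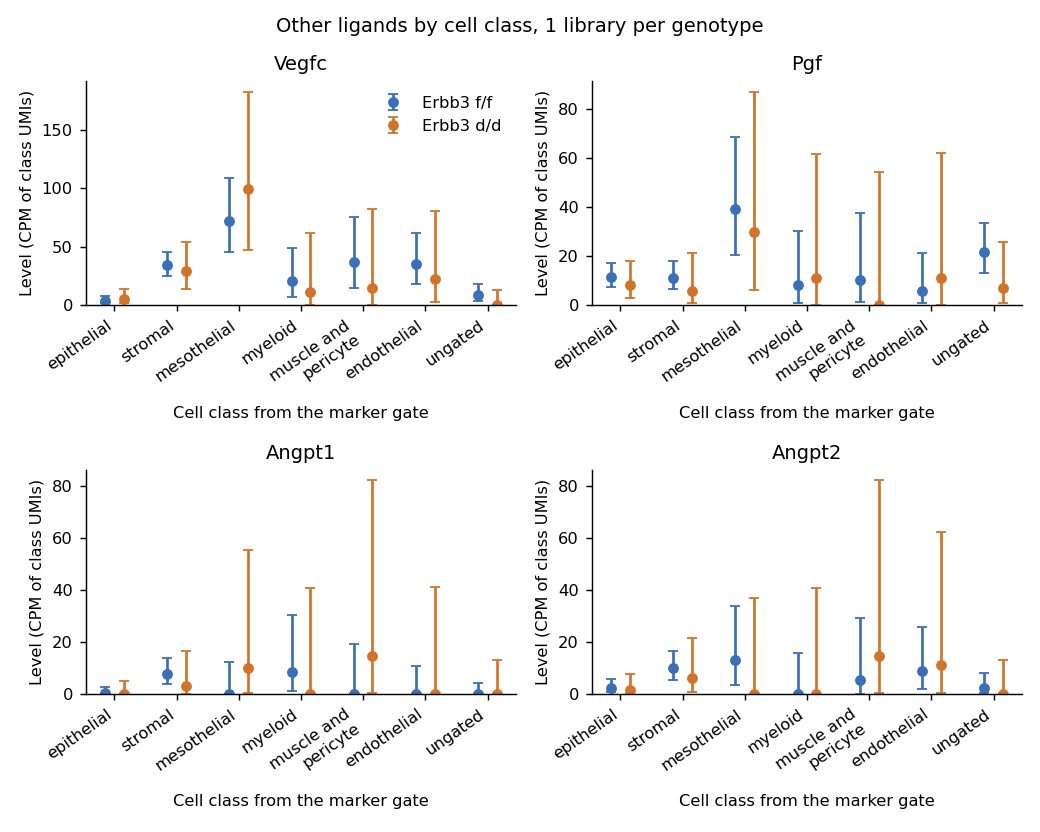
Levels of Vegfc, Pgf, Angpt1 and Angpt2 in CPM of the class total (vertical axes, each panel with its own scale) in 7 groups of cells (horizontal axes), in f/f (blue) and d/d (orange). Points are 1 library each and bars are 95% Poisson intervals. Mesothelial cells have the highest Vegfc points, 72.2 and 99.4 CPM, and the intervals of the 2 libraries overlap in every panel and group.

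The receptors were concentrated in endothelial cells, although the endothelial share of cells was 5.03% and 4.64% (a difference of -0.39 percentage points, interval -1.49 to 0.82). The 5 receptors together had 370 f/f and 107 d/d UMIs, and endothelial and lymphatic cells held 66.8% and 49.5% of them. Of endothelial cells, 45.8% (f/f) and 32.9% (d/d) had at least 1 receptor UMI, the median cell holding 957 and 847 UMIs. The same shares were 0.896% and 1.22% in epithelial cells, which should lack these genes, at 944 and 872 UMIs. After thinning to 500 UMIs the endothelial shares were 31.9% and 21.2%, and the epithelial ones 0.211% and 0.810%. Receptor UMIs outside the endothelial gate were found partly in cells with an endothelial marker: the 117 f/f smooth muscle and pericyte cells held 17, and 16 of these were in the 53 cells with such a marker. In d/d, 13 of 13 were in the 20 such cells. Of the 43 f/f receptor UMIs in stromal cells, 26 were in the 1332 cells with no endothelial marker and 17 in the 217 cells with one. In d/d stromal cells, 6 were in the 348 cells with no such marker and 9 in the 48 cells with one.

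**Figure D4:**
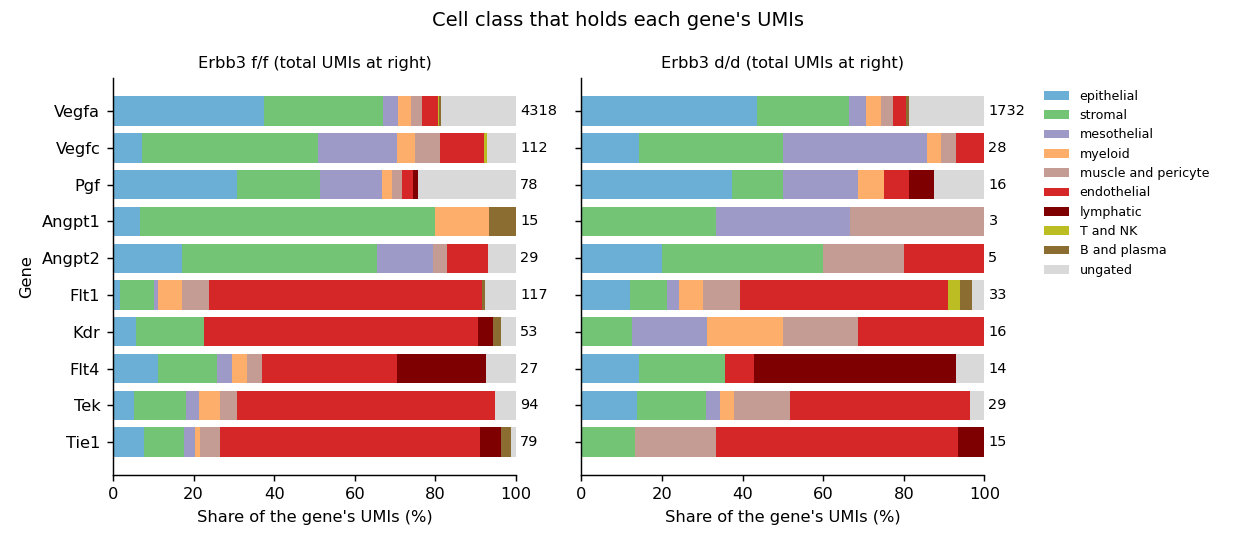
Share of the UMIs of each gene (horizontal axis, percent) held by each cell class (colours), for the 10 genes (vertical axis) in f/f (left) and d/d (right), with the UMI total at the end of each bar. Endothelial cells hold the largest block of Flt1, Kdr, Tek and Tie1, while Vegfa is spread over epithelial (37.6% and 43.6%), stromal (29.4% and 22.7%) and other cells.

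In endothelial cells the 5 receptors summed to 693 CPM in f/f (235 UMIs) and 504 CPM in d/d (45 UMIs), a log2 ratio of -0.46 with an interval from -0.96 to 0.00. The ratio was below 0 under 7 of 8 alternatives. The interval lay below 0 for all deposited barcodes (-0.49, -0.84 to -0.15) and under TMM scaling, a scaling robust to a few abundant genes (-0.51, -1.0 to -0.04). It included 0 under the others. The ratio was -0.14 (interval -0.88 to 0.53) with at least 500 genes and at most 5% mitochondrial UMIs. With cells of more than 1 class left ungated it was -0.09 (interval -0.80 to 0.56). A ratio above 0 was seen when the 272 f/f and 71 d/d cells of the endothelial-like cluster replaced the gate (0.09, interval -0.36 to 0.51). None of the 5 receptors reached 100 UMIs within the endothelial class, so none could be read against the 5.5% of genes past 2-fold there. Flt1 was at 233 CPM (79 UMIs) and 190 CPM (17 UMIs), with a log2 ratio of -0.29 (interval -1.14 to 0.48). Kdr was at 106 CPM (36 UMIs) and 56.0 CPM (5 UMIs), with a log2 ratio of -0.92 (interval -2.63 to 0.43). Both intervals included 0. With 1 more marker needed in the gate the Kdr ratio was -3.04 (interval -8.40 to -0.45), so for Kdr the call depended on the gate. Among the angiopoietin receptors, Tek was at 177 CPM (60 UMIs) and 145 CPM (13 UMIs), with a log2 ratio of -0.28 (interval -1.27 to 0.60). Tie1 was at 150 CPM (51 UMIs) and 101 CPM (9 UMIs), with a log2 ratio of -0.58 (interval -1.79 to 0.46). In the endothelial-like cluster the ratios of Flt1, Tek and Tie1 were -0.02, -0.02 and 0.14, and that of Kdr was -1.04 (interval -2.99 to 0.43).

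**Figure D5:**
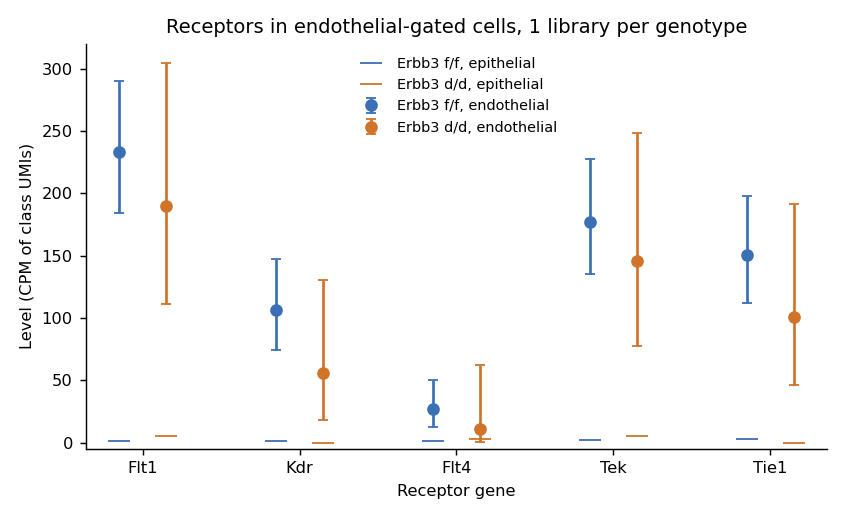
Level of each receptor in CPM of the class total (vertical axis) for 5 genes (horizontal axis) in endothelial cells of f/f (blue points) and d/d (orange points), with 95% Poisson intervals. Short lines give the level in epithelial cells of the same library. The intervals of the 2 libraries overlap for all 5 receptors, and Flt1 has 233 and 190 CPM in endothelial cells against 0.960 and 5.50 CPM in epithelial cells.

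Away from the endothelium the receptors were at low levels. In f/f, Flt1 was next highest in smooth muscle and pericyte cells, 41.9 CPM, below the endothelial level by a log2 difference of 2.48 (interval 1.43 to 3.74), and Tek was next highest in myeloid cells, 21.1 CPM, with a difference of 3.07 (interval 1.77 to 4.75). In d/d, Flt1 in endothelial cells exceeded the smooth muscle level of 44.2 CPM by 2.11 (interval 0.32 to 4.52). For Kdr, Tek and Tie1 in d/d the step from the endothelial to the next class did not exceed counting error. Tie1 and Kdr had 0 UMIs in d/d epithelial cells, where 3 counts would be 4.13 CPM. In d/d, 9 of the 16 Kdr UMIs were in smooth muscle, mesothelial and myeloid cells, with 3 in each, and in f/f those classes held 0 of 53. Of these d/d cells, 32 of 35, 77 of 94 and 43 of 64 also reached the minimum of another class. By cluster, the smooth muscle-like one held 0 f/f and 0 d/d Kdr UMIs, the mesothelial-like one 1 and 3, and the myeloid-like one 3 and 8. The contrast thus depended on how cells were classed.

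Flt4, the lymphatic receptor, had its highest level in lymphatic cells, which held 22.2% (f/f) and 50.0% (d/d) of its UMIs. It had 27 f/f and 14 d/d UMIs, and the 10 f/f and 3 d/d lymphatic cells held 6 and 7 of them, at 788 and 1711 CPM. Of these few cells, 9 and 2 stood at the minimum of 2 markers, and 9 of 10 and 3 of 3 also reached the minimum of another class. They fell into 6 (f/f) and 3 (d/d) of the clusters, so the lymphatic levels rest on cells of uncertain class. The 277 and 85 endothelial cells held 9 and 1, at 26.6 and 11.2 CPM. Flt1 and Tek had 0 UMIs in lymphatic cells, where 3 counts would be 394 CPM in f/f, and Kdr had 2 in f/f, at 263 CPM. Tie1 had 4 and 1 UMIs there, at 525 and 244 CPM. The direction for Flt4 between the libraries depended on how cells were classed: the ratio in gated endothelial cells was -1.25 (interval -6.70 to 1.60), and in the endothelial-like cluster, which held 5 of the 10 and 1 of the 3 lymphatic cells, it was 1.72 (14 and 10 UMIs, interval 0.39 to 3.00).

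Ratios within a library need no gate. Ligand UMIs per receptor UMI were 12.3 in f/f and 16.7 in d/d, a log2 ratio of 0.44 (interval 0.12 to 0.76). With all deposited barcodes it was 0.21 and the interval included 0 (-0.05 to 0.46). With at least 500 genes and at most 5% mitochondrial UMIs it was 0.56 (interval 0.11 to 1.02). The difference was carried by Vegfa: without it the ratios were 0.632 and 0.486, a log2 ratio of -0.38 (interval -0.91 to 0.15). Receptor UMIs per endothelial marker UMI were 0.146 and 0.141 (log2 ratio -0.06, interval -0.39 to 0.28), so the receptor signal per unit of endothelial signal was not detectably different. In the library totals the receptors were at 67.1 and 62.5 CPM (log2 ratio -0.10, interval -0.43 to 0.21), again not detectably different. Such totals do not separate the number of endothelial cells from the receptor RNA per cell. By gene, the ratio per endothelial marker UMI was -0.09 for Flt1, 0.01 for Kdr and 0.04 for Tek. It was 0.79 for Flt4 (interval -0.15 to 1.73) and -0.66 for Tie1 (interval -1.47 to 0.14). Flt1 UMIs per Kdr UMI were 2.21 and 2.06.

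Other genes of the pathway were sparse in endothelial cells. Of the list of endothelial signalling and sprouting genes, 13 of 15 were measured and 2, Notch1 and Plxnd1, reached 100 UMIs in endothelial cells without being markers. Notch1, the receptor through which tip and stalk cells are set apart, was at 286 and 369 CPM (log2 ratio 0.37, interval -0.25 to 0.95), and Plxnd1, a semaphorin receptor, at 431 and 560 CPM (log2 ratio 0.38, interval -0.12 to 0.85). None of the 9 partners and co-receptors was counted there apart from the marker Egfl7, which was at 1873 and 1947 CPM. The marker Robo4 was at 236 and 325 CPM (log2 ratio 0.46, interval -0.21 to 1.09). Sema3f, a secreted semaphorin, was the 1 factor counted there, at 245 and 358 CPM (log2 ratio 0.55, interval -0.09 to 1.15). Of the hypoxia and proliferation genes none was counted in endothelial cells. In stromal cells 3 signalling genes were counted, with 0 past 2-fold, against 4.55% of all genes, and a median of 0.14. Efnb2, an ephrin of arterial endothelium, was at 78.6 and 151 CPM there (log2 ratio 0.95, interval 0.44 to 1.44), and the ratios of Notch1, 0.14, and of Ephb4, the receptor of Efnb2, -0.27, had intervals that included 0. In epithelial cells the same 3 were counted, again with 0 past 2-fold, against 9.2% of all genes, and a median of 0.14. Ephb4 was at 67.2 and 113 CPM there (log2 ratio 0.75, interval 0.34 to 1.15), and the intervals of Notch1 (-0.06) and Efnb2 (0.14) included 0.

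Some other secreted factors differed more than Vegfa in the classes that hold most of it. Their ratios, and those of the hypoxia and proliferation genes below, are of sums over whole classes. The cluster make-up of the epithelium differed between the libraries, and its part in these ratios was not tested. In epithelial cells 5 of 15 factors and inhibitors were counted, 4 of them with a ratio above 0 and 2 past 2-fold in that direction, against 4.72% of all genes, with a median of 0.68 where that of all genes was -0.02. Sema3c, a secreted semaphorin, was at 170 and 435 CPM (log2 ratio 1.35, interval 1.13 to 1.57) and Ptn, the growth factor pleiotrophin, at 37.9 and 109 CPM (log2 ratio 1.52, interval 1.05 to 1.99). Thbs1, an inhibitor of angiogenesis, had the opposite direction, 59.0 and 34.4 CPM (log2 ratio -0.78, interval -1.46 to -0.15). Sema3f was at 289 and 462 CPM (log2 ratio 0.68, interval 0.48 to 0.87). In stromal cells 6 of 15 were counted, with 3 ratios above 0 and 1 past 2-fold higher in d/d, against 1.41% of all genes, with a median of 0.23 where that of all genes was -0.08. Sema3c was again that gene, at 70.9 and 214 CPM (log2 ratio 1.59, interval 1.13 to 2.04). Hgf, a growth factor of mesenchymal cells that acts on epithelium and endothelium, was at 93.3 and 47.5 CPM (log2 ratio -0.98, interval -1.82 to -0.22). Pdgfa was higher in d/d in both, with log2 ratios of 0.57 in epithelial and 0.90 in stromal cells. Of the other factors counted in stromal cells, Sema3f had a ratio of 0.85 (interval 0.38 to 1.30), Thbs1 of -0.39 (interval -0.72 to -0.08) and Ptn of -0.46 (interval -1.35 to 0.34). Angptl4, the 1 partner gene counted in stromal cells, was at 184 and 125 CPM (log2 ratio -0.56, interval -1.07 to -0.09).

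The hypoxia response is the set of genes switched on at low oxygen. The list of 12 used here also holds the factors Hif1a and Epas1, so the epithelial median below includes Hif1a. In epithelial cells 4 of 12 were counted, 1 with a ratio above 0, 0 past 2-fold in either direction, against 9.2% of all genes, and a median of -0.49, beside -0.02 for all genes. Hif1a, the oxygen-sensitive factor itself, was at 76.8 and 39.9 CPM (log2 ratio -0.94, interval -1.57 to -0.37), Ldha at 140 and 106 CPM (log2 ratio -0.40, interval -0.78 to -0.03) and Ndrg1 at 65.8 and 44.0 CPM (log2 ratio -0.58, interval -1.18 to -0.02). P4ha1 had a ratio of 0.47 (interval -0.08 to 1.0). In stromal cells 2 were counted, Ldha (log2 ratio -0.35) and P4ha1 (log2 ratio 0.21), and both intervals included 0. The proliferation genes stood higher in d/d. In epithelial cells 10 of 12 were counted, 10 had a ratio above 0 and 6 passed 2-fold, against 4.72% of all genes, with a median of 1.10 beside -0.02. The other 9 were Mki67 (0.65), Rrm2 (1.52), Tpx2 (1.53), Kif11 (1.79), Cenpf (1.03), Birc5 (0.98), Cdk1 (0.92), Mcm2 (0.83) and Pcna (1.28), given as log2 ratios. Top2a was at 337 and 765 CPM there (log2 ratio 1.18) and at 58.2 and 226 CPM in stromal cells (log2 ratio 1.95), where Rrm2 was the other gene counted (log2 ratio 1.79). Whether cell division has a part in the Vegfa difference was not tested.

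Genes with a pattern like that of a member were sought over 18 points, the 9 gated classes of each library, among 9736 genes with at least 100 UMIs, as a correlation of log2(CPM + 10). The points share 2 libraries and include classes of few cells, so the values only describe. Nearest to Vegfa were Dapk3, Srcap and Metap2, each with r = 0.98. For Vegfc they were Colec12 and Tm7sf3, each with r = 0.92, and Cep295nl with r = 0.91. Flt1 had looser neighbours, Rel and Ehd4 with r = 0.77 and Il10rb with r = 0.73. For Tek they were Abcb1a with r rounded to 1.0, and Dnm3 and Epas1 with r = 0.91, and the other 6 members had fewer than 100 UMIs and were given no neighbours.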

How the data were processed

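The deposited values were raw UMI counts per gene and barcode, not normalized by the authors, and per the file headers Cell Ranger 9.0.0 wrote them; the tissue was fixed and measured with Flex probes, per the labels' protocols. The submitters' processing notes name the builds mm10 and GRCm39 without their roles. Barcodes with at least 200 genes and at most 10% mitochondrial UMIs were used. Each cell went to the class with the most distinct markers detected, divided by the mean number per cell, with at least 2 needed. This scoring was chosen after the data were seen. It replaced a scoring on the share of a class's markers, which had put endothelial-type cells into the stromal class. No doublet caller was run, and an alternative left out cells that reached more than 1 class. Class sums were expressed as CPM, with exact Poisson, Clopper-Pearson and conditional binomial 95% intervals, and normal intervals on the log scale for ratios within a library. Probes differ in efficiency, so a ratio of UMIs of different genes is read only between the libraries, not as a ratio of transcripts. Genes were counted from 100 UMIs over both libraries, and a count of 0 was limited at 3 counts. The 10 members were always named, genes of 5 lists where they had 100 UMIs in a class, and the 3 most correlated genes for members with 100 UMIs. The members and lists were chosen with earlier results of these data known. Alternatives were a stricter gate, Leiden clusters (resolution 1, 2000 variable genes, 30 components, 15 neighbours), other cell filters, TMM scaling (edgeR 4.0.16, R 4.3.3), sums without the most abundant gene, thinning to 500 UMIs and a minimum of 20 UMIs. Tools were Python 3.11.15, numpy 2.4.6, scipy 1.17.1, pandas 2.3.3, scanpy 1.11.5, leidenalg 0.10.2 and matplotlib 3.10.9. Computations were tested on simulated data.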

Additional observations from a re-analysis of the deposited data

Results flagged for a closer look

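The barcodes left out for over 10% mitochondrial UMIs, which the main comparisons did not use, held UMIs of the members above the limit that a count of 0 allows. These 280 f/f barcodes held 559 UMIs of Vegfa, 11 of Vegfc, 11 of Pgf, 7 of Angpt2, 30 of Flt1, 10 of Kdr, 4 of Flt4, 19 of Tek and 26 of Tie1. The 295 d/d barcodes held 629 UMIs of Vegfa, 12 of Vegfc, 5 of Pgf, 28 of Flt1, 11 of Kdr, 8 of Flt4, 19 of Tek and 15 of Tie1. Within them Vegfa was at 429 CPM in f/f and 545 CPM in d/d, a log2 ratio of 0.34 (interval 0.18 to 0.51), close to the 0.37 of the cells that were kept. Flt1 was at 23.0 and 24.3 CPM. These barcodes held 11.5% of all Vegfa UMIs of the f/f library and 26.6% of those of the d/d library, and 24.8% and 50.0% of those of Tie1.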

How the results depend on the processing

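No paired analysis was possible because there was 1 library per genotype. In epithelial and stromal cells the Vegfa ratio stayed above 0 under 7 of 7 alternatives each (0.22 to 0.44 and 0.30 to 0.65), and in endothelial cells under 5 of 7 (-1.34 to 0.63). Without Vegfa the ligand sums turned to -0.50 in stromal and -0.27 in epithelial cells, and both intervals included 0. With Leiden clusters the receptor ratio in endothelial cells was 0.09 and the ligand ratio in stromal cells 0.58. With all deposited barcodes the epithelial ligand ratio was 0.20, and Vegfa over all cells was also 0.20. The share of receptor UMIs in endothelial or lymphatic cells, f/f then d/d, was 51.9% and 38.3% with 1 more marker needed, 49.2% and 37.4% with a gate on the share of markers, and 29.5% and 22.4% with cells of more than 1 class left ungated. The gate on the share of markers was the first scoring, and the main gate replaced it after the data were seen. Leaving cells of more than 1 class ungated was added after seeing the data. The Vegfa share in epithelial or stromal cells was 54.7% and 53.6%, 73.6% and 73.4%, and 55.9% and 53.4% under the same gates in that order. It was 77.3% and 71.2% with Leiden clusters and 65.5% and 62.2% with all barcodes. With at least 500 genes and at most 5% mitochondrial UMIs it was 70.4% and 72.1%. At a minimum of 20 UMIs, genes past 2-fold numbered 1207 over all cells, 1457 in epithelial, 1263 in stromal and 975 in endothelial cells, against 593, 606, 236 and 43 at 100 UMIs, with more genes tested. The causes of the other shifts were not tested. Receptor counts of 1 to 79 UMIs in endothelial cells limit what can be seen.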
